A study of Rattus norvegicus with 18 samples.

Results

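Voltage-gated sodium and calcium channel genes were followed in the prefrontal cortex (PFC) of rat pups exposed to oxycodone (oxy). Members were taken by symbol, from genes whose name starts with Scn and a digit, with Cacna or with Cacnb. Of the 32623 genes in the files 30 are reported, of which 12 belong to the sodium channel family and 18 to the calcium channel family. RNA was measured in the PFC of 18 Sprague Dawley pups at postnatal day 14 (P14), with 6 pups in each of 3 groups. SAL pups were born to dams given saline. PNO pups were nursed by dams gavaged with oxy at 15 mg/kg/day from birth of the litter to weaning, so that the drug could reach them only after birth. IUO pups had dams that started at 10 mg/kg/day before mating, reached 15 mg/kg/day, and stayed on oxy through pregnancy and nursing, so that these pups met the drug before and after birth. In both oxy groups the dam, not the pup, received the drug, and the labels tie no pup to a dam or a sex. P-values therefore measure the spread between these pups, some of which may be littermates.

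Sodium channels open when the membrane depolarizes and carry the rising phase of the action potential. Each has 1 large pore-forming alpha subunit joined by smaller beta subunits that set its gating and its place in the membrane. Calcium channels turn depolarization into calcium entry, which drives transmitter release at the terminal and gene expression in the cell body. Their alpha1 subunit forms the pore, while alpha2delta and intracellular beta subunits bring most of these channels to the membrane. In the maturing cortex the alpha subunit Scn3a is known as an early form, and Scn1a and Scn8a as forms that gain ground after birth.

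Total expected counts, the estimated number of reads per library, ran from 18381819 to 26084780. These 30 channel genes together took 0.194% to 0.339% of them. All 8 markers of cortical excitatory neurons were present, with a summed level of 1885 to 5469 CPM (counts scaled to a fixed library total) over the 18 pups. RNA of no other brain region was at hand for comparison. The libraries also held markers of the neighbouring striatum, at a summed 199 to 2055 CPM, and myelin markers, at 1728 to 14820 CPM, and these varied strongly between pups of the same group. Since whole tissue was sequenced, fewer cells of a type and less RNA per cell cannot be told apart in any value below.

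Of the 30 genes, 19 had a median level of at least 10 TPM (a share of all transcripts, adjusted for transcript length) in SAL pups, 4 had 1 to 10 TPM and 7 were under 1 TPM. Auxiliary subunits led. Cacnb3, a calcium channel beta subunit, had the highest level of those reported, with a median of 166 TPM in SAL (124 to 202, n = 6). The sodium channel beta subunit Scn3b had a median of 104 TPM (90.4 to 131), with a range that overlapped that of Cacnb3. The calcium channel beta subunit Cacnb1 had 65.9 TPM (47.0 to 75.4), with all SAL pups below those of Scn3b. The order of these and of the leading pore-forming genes was the same by FPKM.

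**Figure D1:**
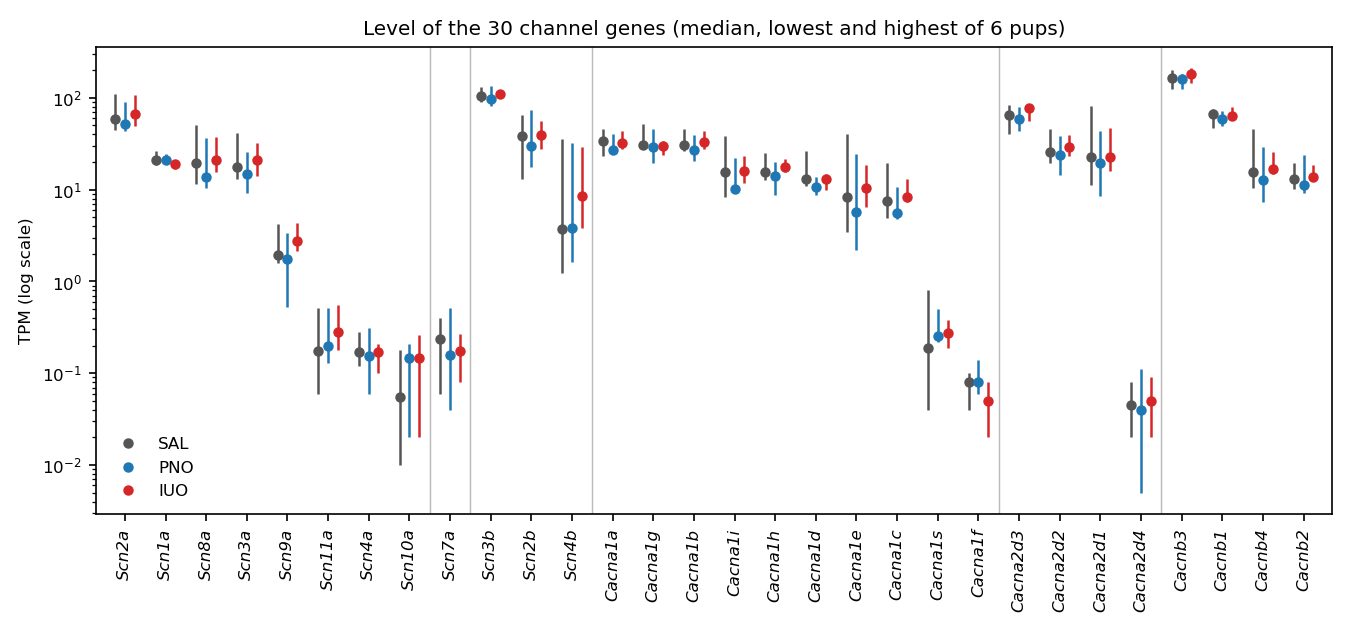
Level of each channel gene in TPM on a log axis, with the median (point) and the lowest and highest of 6 pups (line) in SAL, PNO and IUO, and vertical lines between the subunit classes in the order sodium alpha, Nax, sodium beta, calcium alpha1, alpha2delta and beta. Cacnb3 and Scn3b stood highest, and the 1 pup in which Cacna2d4 had no count is drawn at the foot of its line.

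Among the 8 sodium channel alpha subunits reported, Scn2a, which encodes Nav1.2 of excitatory neurons, had about as high a level as the others together. Its median was 58.6 TPM in SAL (45.1 to 109), and its mean was 48.8% of their summed level, against 50.7% in PNO and 51.1% in IUO. Scn1a (Nav1.1), the channel that parvalbumin interneurons are known to depend on, had 21.1 TPM. Scn8a (Nav1.6), the main form of the mature axon initial segment, had 19.5 TPM, and the early form Scn3a (Nav1.3) had 17.7 TPM. Their SAL ranges overlapped, at 18.5 to 26.1, 11.7 to 51.1 and 13.0 to 41.5 TPM. Scn9a (Nav1.7), better known from sensory neurons, had a median of 1.95 TPM in SAL. Scn4a of skeletal muscle, Scn10a and Scn11a of sensory neurons, and Scn7a, the atypical sodium sensor Nax, stayed at or under 0.55 TPM in every pup.

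The start sites of the alpha subunit genes Scn2a and Scn8a are shown because their RNA moved together over the pups, as described further on, while the DNA before the starts differs. Each line gives the 250 bases before the annotated start from RefSeq (build GRCr8), with GC boxes in capitals, which are matches to GGGCGG or its reverse complement CCGCCC. The windows are chr3:70710706-70710955 for Scn2a and chr7:133860977-133861226 for Scn8a, both on the plus strand.
Scn2a: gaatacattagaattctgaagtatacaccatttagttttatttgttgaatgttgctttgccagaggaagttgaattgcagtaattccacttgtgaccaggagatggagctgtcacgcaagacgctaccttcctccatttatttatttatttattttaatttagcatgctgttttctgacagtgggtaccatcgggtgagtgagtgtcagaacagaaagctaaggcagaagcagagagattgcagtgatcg
Scn8a: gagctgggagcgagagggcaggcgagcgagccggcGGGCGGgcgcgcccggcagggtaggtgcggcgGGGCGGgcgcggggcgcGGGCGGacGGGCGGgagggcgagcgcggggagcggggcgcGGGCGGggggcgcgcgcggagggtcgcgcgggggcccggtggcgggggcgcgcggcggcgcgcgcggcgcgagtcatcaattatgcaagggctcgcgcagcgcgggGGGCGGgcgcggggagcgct
The Scn8a window had 86.0% G or C and 6 GC boxes, and the Scn2a window had 39.6% and none. Over 33469 windows of this length the median was 51.2%, and 30.5% held a GC box. The 22 channel genes with a window had 25 windows, of which 13, from 11 genes, held at least 1. A TATA box, read as TATAAA or TTTATA, was in the window of Cacna1s alone among these genes, against 12.9% of all windows. The 9 letters TTCAGCACC, part of the site known for the neuronal repressor REST, or their reverse complement, were in 0 of the 22 and in 0.305% of all windows. None of these motifs contains another, both strands were read, and a match is a description of the sequence only.

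The sodium channel beta subunits Scn3b, Scn2b and Scn4b differed in how much they varied. Scn3b was the steadiest of the 28 tested genes reported, with a highest level 1.3 times the lowest over 18 pups (221 to 288 CPM). Scn2b ranged 4.16-fold (9.48 to 39.5 CPM). Scn4b, a beta subunit known for its high level in striatal neurons, ranged 30.3-fold, from 3.21 to 97.2 CPM, the widest of these 28 genes. Within groups it ranged 28.6-fold in SAL (3.21 to 91.9 CPM), 23.7-fold in PNO (4.10 to 97.2) and 7.54-fold in IUO (10.3 to 78.0).

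Scn2b and Scn4b are next to each other among the protein-coding genes of rat chromosome 8 in the RefSeq gene table. Their windows are shown because these neighbours followed different measures over the pups. Both are on the plus strand, at chr8:54322133-54322382 and chr8:54343623-54343872 of GRCr8, and neither holds a GC box or a TATA box by the letters above.
Scn2b: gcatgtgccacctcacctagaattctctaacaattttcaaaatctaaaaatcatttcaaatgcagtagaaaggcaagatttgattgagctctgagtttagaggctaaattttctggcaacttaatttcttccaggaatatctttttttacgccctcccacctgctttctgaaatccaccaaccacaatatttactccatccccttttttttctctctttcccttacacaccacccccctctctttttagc
Scn4b: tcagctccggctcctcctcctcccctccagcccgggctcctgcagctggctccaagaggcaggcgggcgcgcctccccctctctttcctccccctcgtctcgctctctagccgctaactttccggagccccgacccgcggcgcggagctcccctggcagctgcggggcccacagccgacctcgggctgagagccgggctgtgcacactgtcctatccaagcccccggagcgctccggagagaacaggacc
The Scn2b window had 38.8% G or C and the Scn4b window 71.6%. Other members also adjoin in that table, namely Scn3a with Scn2a, and Scn1a with Scn9a and Scn7a.

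Among the calcium channel alpha1 subunits no single gene led. Cacna1a (P/Q-type), Cacna1g (T-type) and Cacna1b (N-type) had SAL medians of 33.6, 30.6 and 30.5 TPM, each 18.8% to 20.3% of the class, and their ranges overlapped. P/Q- and N-type channels trigger transmitter release, and T-type channels open near the resting potential and support burst firing. The other T-type genes Cacna1i and Cacna1h had 15.5 and 15.4 TPM. The neuronal L-type genes, which couple activity to transcription, were lower, with 12.9 TPM for Cacna1d and 7.51 TPM for Cacna1c. The R-type gene Cacna1e had 8.42 TPM and ranged from 3.50 to 40.1 TPM within SAL. Cacna1s of skeletal muscle reached 0.8 TPM at most, and Cacna1f of the retina 0.14 TPM with 2 to 9 counts per pup.

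The alpha2delta subunits, of which Cacna2d1 and Cacna2d2 bind gabapentin, were led by Cacna2d3, at 64.6 TPM in SAL (40.4 to 83.1), or 52.3% of its class. Cacna2d2 had 25.7 TPM and Cacna2d1 22.8 TPM. Cacna2d4 had 0 to 5 counts per pup, and the count of 0 in PNO pup 4 allows up to 3 counts, or 0.14 CPM. Of the beta subunits Cacnb3 held 63.1% of the class in SAL and Cacnb1 23.9%. Cacnb4 and Cacnb2 had 15.8 and 13.2 TPM. Cacna1f and Cacna2d4 fell below the filter on low counts, so that 28 of the 30 genes were tested.

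None of the 28 genes differed between any groups after adjustment over all 15703 genes tested by edgeR's quasi-likelihood test (adjusted p of 0.05), where 0% of all genes passed in PNO against SAL, 0% in IUO against SAL and 0.0637% in IUO against PNO. DESeq2 called 0 of the 28 in each comparison, against 0.00637%, 0.312% and 2.78% of all genes. Limma-voom with sample weights called 0, 0 and 2 (Cacna1c and Scn1a), against 0%, 0.274% and 12.9% of all genes. What follows at an unadjusted p under 0.05 is therefore given beside the share of all genes at that level. With a fold change of at least 1.5 as well, those of the 28 past an unadjusted p of 0.05 numbered 0 in each comparison, against 1.24%, 1.6% and 3.82% of all genes, and 0.0446% of all genes met both that fold and the adjusted p in IUO against PNO. None of the 28 had groups that lay wholly apart, which 0.108%, 0.745% and 1.66% of all genes showed in the 3 comparisons.

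PNO against SAL asked what oxy after birth alone did. Here 1 of 28 channel genes had an unadjusted p under 0.05, against 4.5% of all genes, of which 1.89% were higher and 2.6% lower. Cacna1d, the L-type channel Cav1.3, was lower in PNO, with a lowest, median and highest pup of 47.8, 56.1 and 64.0 CPM against 53.0, 64.7 and 110 CPM in SAL. The groups overlapped, and the log2 fold change was -0.32 ± 0.14 (SE, n = 6 per group, edgeR adjusted p = 0.912). The highest Cacna1d value came from SAL pup 6, and without that pup the log2 fold change was -0.15 and no longer had an unadjusted p under 0.05. Leaving out 1 pup at a time, Cacna1d kept an unadjusted p under 0.05 in 8 of 12 fits and lost it without SAL pup 6 or PNO pup 1, 3 or 6, at -0.39 to -0.15. It also lost it in 6 of 12 other settings, namely limma-voom (-0.17), the myelin score (-0.15) or the transcript length (-0.24) as a covariate, the fit without the longest-transcript library of each group (-0.15), the replicate block (-0.31) and the fit to only the 12 pups compared (-0.33). Of the 28 genes 6 had a log2 fold change above 0, against 50.8% of all genes, with a median of -0.09 (all genes 0.00). Without SAL pup 6 the same count was 14 of 28, and with the myelin score as a covariate it was 17, against 55.6% of all genes, with a median of 0.02. The T-type gene Cacna1i (log2 fold change -0.36 ± 0.24), Scn8a (-0.26 ± 0.29) and Cacnb4 (-0.25 ± 0.29) did not pass. Without SAL pup 6 Cacna1i was at -0.10, and Scn8a (0.0013) and Cacnb4 (0.0618) were above 0, as they were with the myelin score as a covariate (0.0949 and 0.0966). Over the fits without 1 pup Cacna1i ran from -0.53 to -0.10. It had an unadjusted p under 0.05 only without PNO pup 5, where 6.42% of all genes did.

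IUO against SAL asked what exposure from before birth did. In this comparison 1 of 28 channel genes had an unadjusted p under 0.05, against 6.88% of all genes, of which 3.02% were higher and 3.87% lower. Scn1a was lower in IUO, with a lowest, median and highest pup of 80.1, 93.3 and 103 CPM against 88.3, 101 and 127 CPM in SAL. The groups overlapped, with a log2 fold change of -0.20 ± 0.09 (edgeR adjusted p = 0.713). It kept an unadjusted p under 0.05 in 5 of the 12 fits without 1 pup and lost it without SAL pup 2, 4 or 5 or IUO pup 1, 4, 5 or 6, at -0.25 to -0.14. Of 12 other settings 9 kept it, and the fits with the myelin score (-0.17), with the striatal score (-0.14) and to only the 12 pups compared (-0.20) did not. Cacna1g, which encodes the T-type channel Cav3.1, had -0.27 ± 0.14 (edgeR adjusted p = 0.783), and Cacnb3 had 0.08 ± 0.12. Cacna1g was at -0.07 with the striatal score and at -0.41 with the myelin score. It had an unadjusted p under 0.05 with the myelin score or the length as a covariate and in the fit to only the 12 pups compared. Without SAL pup 1 or 3 it had such a p as well. Log2 fold changes were above 0 for 18 of the 28 genes, against 48% of all genes, with a median of 0.04. The direction of that median rested on single pups, since without SAL pup 4 it was -0.03 with 13 genes above 0, and without IUO pup 5 -0.03 with 12. With the myelin score as a covariate it was -0.06 with 11, against 48.7% of all genes.

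IUO against PNO compared pups exposed from before birth with those exposed only after it. Here 1 of 28 channel genes had an unadjusted p under 0.05, against 15.3% of all genes, of which 6.14% were higher and 9.14% lower. The share of channel genes lay under that of all genes, a gap that was not tested. The gene was again Scn1a, with 80.1, 93.3 and 103 CPM as its lowest, median and highest IUO pup and 97.6, 112 and 119 CPM in PNO. Only the ends of its groups overlapped, and the log2 fold change was -0.27 ± 0.09 (SE, edgeR adjusted p = 0.188). It kept an unadjusted p under 0.05 in all 12 fits that left out 1 pup, at -0.31 to -0.24, and in 11 of 12 other settings, but not with the myelin score as a covariate (-0.21, edgeR adjusted p = 0.619).

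The IUO pups enter both comparisons of Scn1a, so these values are not separate evidence. Set side by side, its mean level was 106 ± 16.8 CPM (SD, n = 6) in SAL, 111 ± 7.59 in PNO and 92.0 ± 7.98 in IUO. The other channel genes ran from a log2 fold change of -0.39 to 0.67 in IUO against PNO, and 23 of the 28 were above 0, against 49.9% of all genes, with a median of 0.13. In the fits that left out 1 pup this median ran from 0.05 to 0.21. With the myelin score as a covariate 11 of the 28 were above 0, against 46.3% of all genes, and the median was -0.10. Scn3a had 0.35 ± 0.25, Cacna1c 0.35 ± 0.21, Cacna2d3 0.19 ± 0.15, Cacna1b 0.17 ± 0.11, Scn2a 0.13 ± 0.18, Scn2b 0.13 ± 0.28, Cacna1a 0.11 ± 0.12, Cacnb1 0.08 ± 0.08 and Scn3b 0.06 ± 0.07, and none of these passed at an unadjusted p of 0.05 in the edgeR fit of all 18 pups without a covariate. In other edgeR fits Cacna1c passed with the length covariate, without the longest-transcript library of each group and with only the 12 pups compared. Cacna1b and Scn3a passed with the striatal score, and Cacna1b without PNO pup 5. Of all genes 16.3% to 19.6% passed in those fits. In the fit with the myelin score Scn3a, Cacna1c, Cacna1b, Scn2a, Scn2b and Cacna1a turned to below 0. Without 1 pup at a time Scn2a ran from 0.0033 to 0.2258 and Scn2b from 0.0154 to 0.3856. Cacna1a ran from 0.0449 to 0.1734 and Scn3b from 0.028 to 0.0962. Scn4b had 0.39 ± 0.92, the widest error of the members named.

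**Figure D2:**
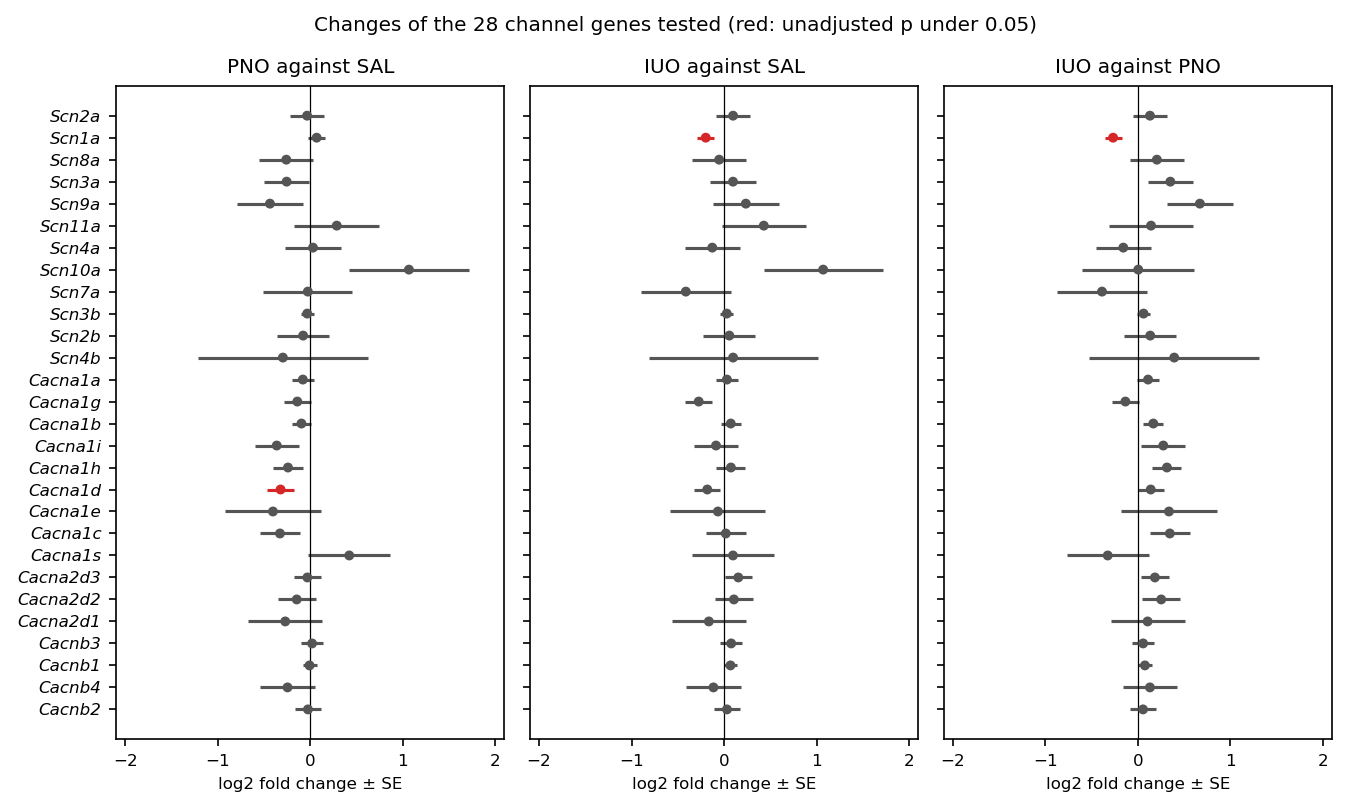
Log2 fold change with its SE (line) for the 28 tested channel genes in each comparison, by edgeR. The member with an unadjusted p under 0.05 is drawn in red, namely Cacna1d in PNO against SAL and Scn1a in the other comparisons, and most other lines cross or come close to 0.

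Ratios of 2 subunits within a pup need no library size and were taken from expected count over effective length. Of the 21 tests (7 ratios, 3 comparisons) none passed after adjustment and 1 had an unadjusted exact permutation p under 0.05, that of the T-type genes Cacna1g and Cacna1i in IUO against PNO. It was 1.44 to 2.14 in IUO (median 1.81), 1.82 to 3.06 in PNO (median 2.38) and 1.38 to 3.44 in SAL. The groups overlapped, with a log2 difference of -0.41 ± 0.15 in IUO against PNO (SE, two-sided exact permutation p = 0.0303, adjusted p = 0.545). Without 1 pup at a time it kept an unadjusted p under 0.05 in 7 of 12 cases and lost it without IUO pup 1 or 5 or PNO pup 2, 4 or 6, at -0.49 to -0.34. The ratio of Scn1a to the early form Scn3a had medians of 1.19 in SAL, 1.42 in PNO and 0.867 in IUO. Its log2 difference in IUO against PNO was -0.67 ± 0.29 (two-sided exact permutation p = 0.052, adjusted p = 0.545). Scn8a over Scn2a had medians of 0.344 in SAL, 0.274 in PNO and 0.328 in IUO, and Cacna1a over Cacna1b 1.03, 1.02 and 0.982, with no exact permutation p under 0.05. For the remaining ratios, Scn4b to Scn2b, Cacna1c to Cacna1d and Cacnb4 to Cacnb1, the smallest exact permutation p of any comparison was 0.13.

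**Figure D3:**
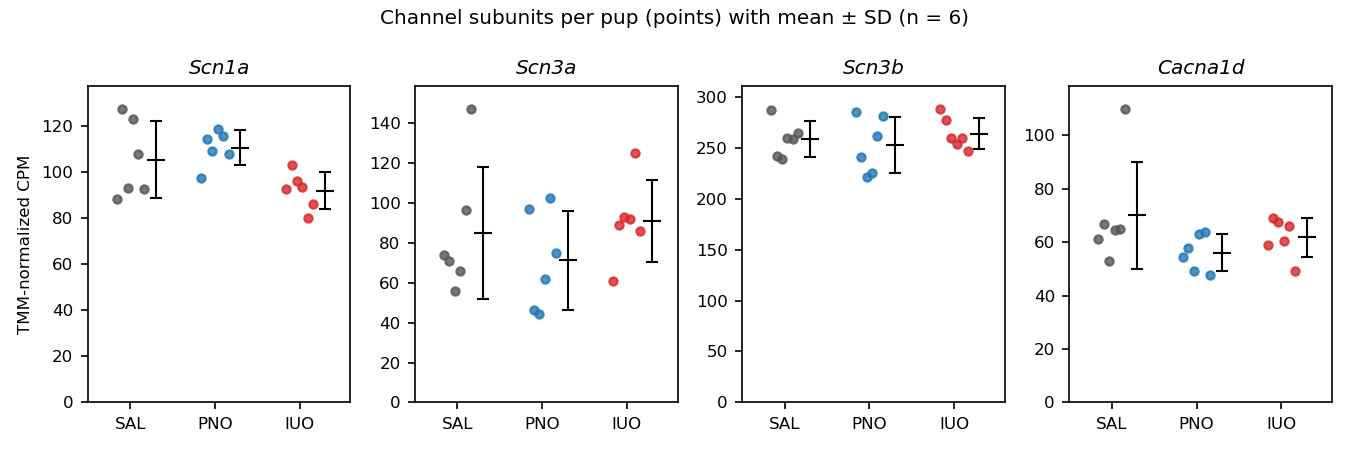
TMM-normalized CPM of Scn1a, Scn3a, Scn3b and Cacna1d in each pup (points), with the mean and SD of 6 pups beside them. For Scn1a the IUO points, at 80.1 to 103 CPM, lie mostly below the PNO points, at 97.6 to 119 CPM, the Scn3b points of the 3 groups cover much the same range, and 1 SAL pup at 110 CPM stands above the other Cacna1d points.

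Levels of several members moved with other features of the same libraries, and their part in the group values was tested only where a fit is named. Pvalb, the marker of fast-spiking interneurons, had 4.43 CPM on average in IUO, 22.4 in PNO and 13.0 in SAL, with an adjusted p of 0.0356 in IUO against PNO by edgeR. It is 1 of 8 inhibitory neuron markers, whose summed level had medians of 820 CPM in SAL (748 to 1176), 878 in PNO (746 to 1133) and 821 in IUO (706 to 1118). Of these 8, Pvalb and Kcnc1 had an unadjusted p under 0.05 in IUO against PNO, where 15.3% of all genes did. Over the 18 pups Scn1a had Pearson r = 0.787 and Spearman rho = 0.771 with Pvalb (permutation p = 0.00018 and 0.00025, adjusted p of r 0.00054 over 33 relations). Without the 2 pups of most extreme Pvalb r was 0.731. It did not hold within PNO, where r was -0.312, against 0.848 in SAL and 0.865 in IUO.

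Myelin markers moved with the same comparison. The summed level of the 8 genes had a median of 6320 CPM in SAL (1728 to 9313), 10330 in PNO (2928 to 14820) and 3010 in IUO (2209 to 5638), and all 8 were lower in IUO than in PNO at an unadjusted p under 0.05, against 9.14% of all genes. With the myelin score as a covariate, the call of Scn1a in IUO against PNO was lost and fewer channel genes were above 0, as given above. The SE of Scn1a also grew, from 0.09 to 0.11. Score and group went together in this comparison, so that fit cannot fully tell them apart. It also takes the same slope in all groups. Across pups Scn3a had r = -0.698 and rho = -0.637 with the myelin score (permutation p = 0.0013 and 0.0054, adjusted p = 0.0032), and Scn8a r = -0.582 and rho = -0.583 (p = 0.012 and 0.013, adjusted p = 0.026). Without the 2 pups of most extreme score these were r = -0.839 and -0.822. Within SAL, PNO and IUO they were -0.977, -0.249 and -0.812 for Scn3a and -0.937, -0.12 and -0.866 for Scn8a, so both were weak within PNO. For Scn1a r was 0.484 and rho 0.529 (permutation p = 0.044 and 0.026, adjusted p = 0.076), 0.573 without those pups, and 0.44, -0.673 and 0.652 within groups.

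Scn4b followed the striatal markers. Against the mean z-score of 10 striatal genes, Scn4b had r = 0.957 and rho = 0.905 over 18 pups (permutation p = 1e-05 for each, the smallest that 100000 permutations can give, adjusted p = 4.1e-05), 0.952 without the 2 pups of most extreme score, and 0.975, 0.977 and 0.984 within SAL, PNO and IUO. The summed striatal level had medians of 334, 342 and 731 CPM in these groups. With the striatal score in the fit, the Scn4b log2 fold change in IUO against PNO went from 0.39 to -0.88 (edgeR adjusted p = 0.0897). With the myelin score in its place it was 2.80 (edgeR adjusted p = 0.353), and without 1 pup at a time it ran from 0.0218 to 1.39, so its size and direction hung on the fit. Its neighbour Scn2b, by contrast, moved with the length measure described next (r = 0.878), and Scn4b did not (r = -0.166).

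**Figure D4:**
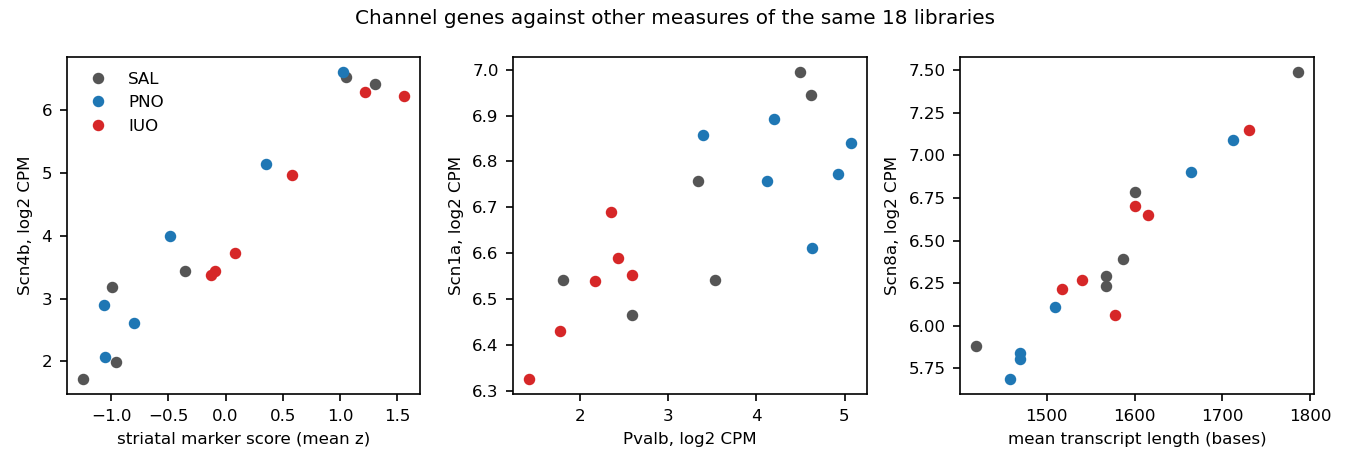
Log2 CPM of Scn4b against the striatal marker score, of Scn1a against Pvalb and of Scn8a against the mean transcript length of the library, with 1 point per pup coloured by group. Scn4b rises along the score with r = 0.957, Scn1a along Pvalb with r = 0.787, where the IUO pups sit at the low end, and Scn8a along the length with r = 0.96.

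All 28 tested genes were also set against transcript length. The mean effective transcript length of a library, weighted by abundance, ran from 1420 to 1786 bases and did not separate the groups (exact permutation p = 0.543, 0.903 and 0.37 for PNO with SAL, IUO with SAL and IUO with PNO). Across pups 9 of the 28 channel genes had r above 0.8 with it, or 32.1%, against 10.5% of all 15703 genes. They are Scn8a, Scn2a, Scn3a and Scn2b, and Cacna2d1, Cacna1i, Cacna1c, Cacna1e and Cacnb4, with r from 0.821 to 0.96 (largest adjusted p 9.9e-05). Their r without the 2 pups of most extreme length was 0.692 to 0.93, and within single groups 0.645 to 0.999. Scn8a, for example, had r = 0.96 and rho = 0.944 (permutation p = 1e-05 for each). The deposited transcript lengths of these genes in SAL had medians of 3781 bases (Cacnb4) to 8709 bases (Scn2a), except for Scn2b at 1037 bases. Scn1a, with 7981 bases, went the other way (r = -0.519, rho = -0.447, permutation p = 0.027 and 0.064, adjusted p = 0.05), and this was weaker without the 2 extreme pups, at r = -0.364. The length measure is built from the levels of the same libraries, channel genes included, so it is not independent of genes with long transcripts. The 10.5% was taken over genes of all lengths. Whether the 32.1% is particular to channel genes was not tested.

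**Figure D5:**
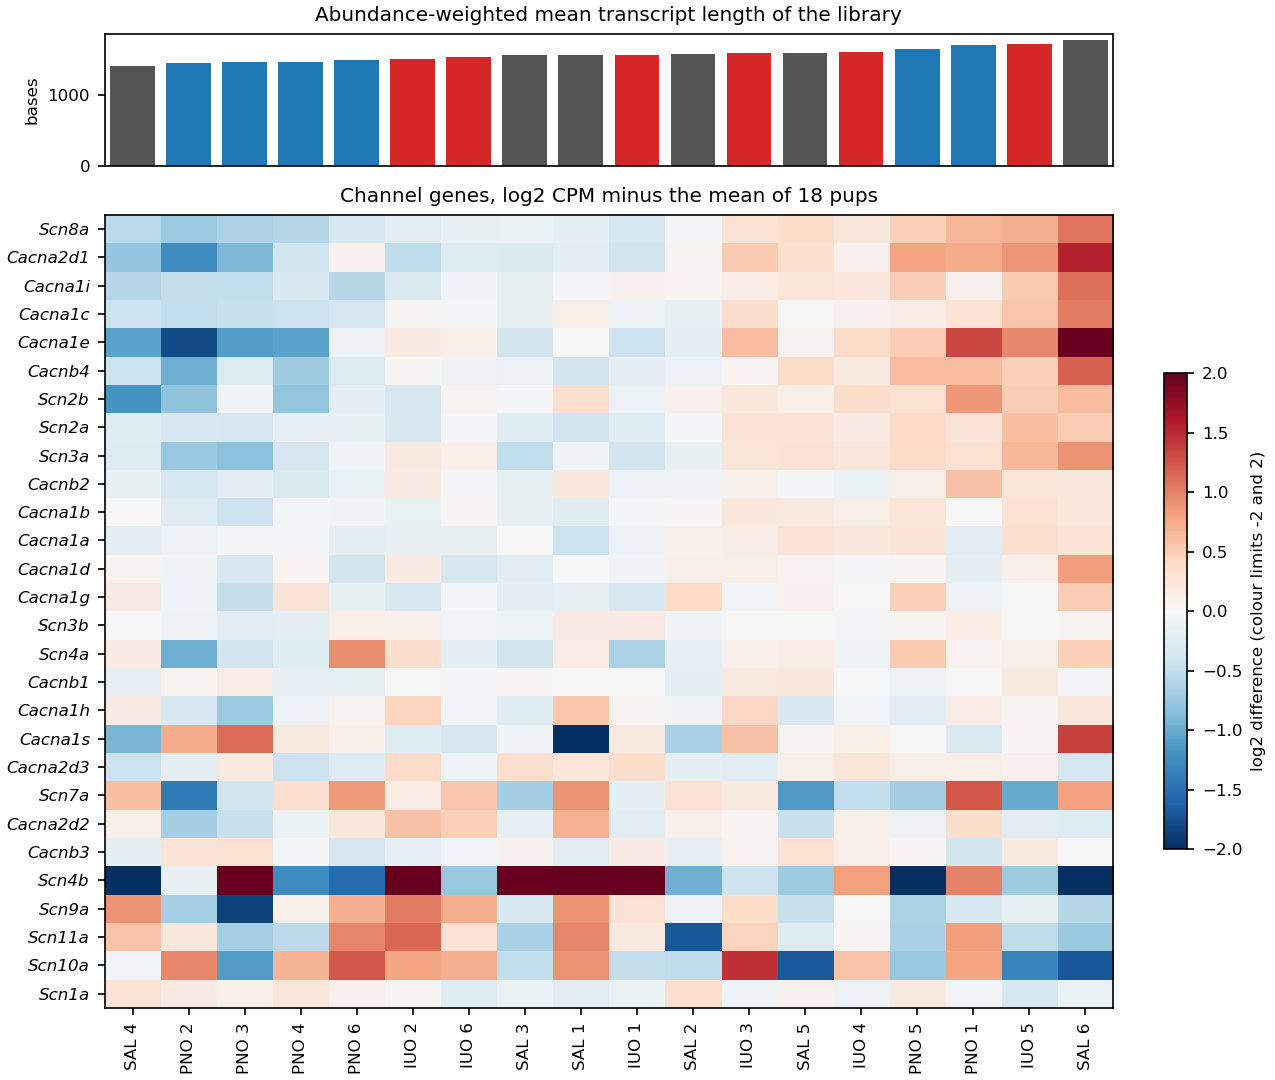
Mean transcript length of each library in bases (bars, coloured as SAL grey, PNO blue, IUO red) above a map of the 28 tested channel genes, where colour is log2 CPM minus the mean of the 18 pups, and columns are ordered by that length and genes by their r with it. The upper rows, from Scn8a to Scn3a, turn from blue to red from the 1420 bases of SAL pup 4 to the 1786 bases of SAL pup 6, and the lowest row, Scn1a, does not.

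The 3 libraries with the longest mean transcripts in their groups were SAL pup 6, PNO pup 1 and IUO pup 5. Without them Scn1a in IUO against PNO had a log2 fold change of -0.26 (edgeR adjusted p = 0.16), and 3 of the 28, Scn1a, Cacna1c and Cacna1h, had an unadjusted p under 0.05 in that comparison, against 19.6% of all genes in that fit. With the length as a covariate the value was -0.23 (edgeR adjusted p = 0.157), still at an unadjusted p under 0.05. In PNO against SAL none of the 28 had an unadjusted p under 0.05 in the fit with the length, against 5.74% of all genes, and 11 of 28 were above 0, against 52.8%.

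Channel partners were read beside the channels. Of 12 tested genes of the axon initial segment and the sodium channel, 0, 0 and 3 had an unadjusted p under 0.05 in PNO against SAL, then IUO against SAL, then IUO against PNO, where 4.5%, 6.88% and 15.3% of all genes did, and none passed after adjustment in edgeR. In IUO against PNO these were Nfasc, an adhesion molecule of the initial segment also made by oligodendrocytes, at -0.45 ± 0.19, Fgf12, an intracellular channel partner, at -0.19 ± 0.08, and Nedd4l, a ubiquitin ligase that removes sodium channels, at 0.30 ± 0.14. Nfasc had 292, 326 and 372 CPM as its lowest, median and highest IUO pup and 303, 376 and 814 CPM in PNO. Without PNO pup 1 its value was -0.21 and did not pass, and with the myelin score in the fit it was 0.09. Of 16 calcium channel partners, 1, 3 and 8 had such a p, beside the same shares of all genes. In PNO against SAL it was Cacng5, a gamma subunit of AMPA receptor complexes, at -0.93 ± 0.33. Its highest SAL pup had 72.0 CPM, against at most 21.5 in PNO, and without that pup (SAL pup 6) the value was -0.46 and did not pass. In IUO against SAL they were the vesicle tether Rims2 (0.20 ± 0.09), the gamma subunit Cacng8 (0.24 ± 0.10) and Stac2 (-0.59 ± 0.20). In IUO against PNO 6 were higher, namely the gamma subunits Cacng4 (0.25 ± 0.08), Cacng5 (0.75 ± 0.33) and Cacng8 (0.27 ± 0.10), the channel-inhibiting GTPase Rem2 (0.55 ± 0.19), and Rims2 (0.21 ± 0.09) and Rimbp2 (0.40 ± 0.19), which hold channels at release sites. The 2 lower ones were Stac2 (-0.70 ± 0.20) and Cachd1 (-0.70 ± 0.29), an alpha2delta-like protein. Of those, Rims2 had 130, 137 and 176 CPM as its lowest, median and highest IUO pup and 107, 124 and 144 CPM in PNO, so that its groups overlapped. Stac2, which binds L-type channels, had 13.8, 16.7 and 27.2 CPM in IUO and 18.2, 28.2 and 40.9 CPM in PNO, again with overlap. None passed after adjustment in edgeR. Of the 15 partner calls, 5 kept an unadjusted p under 0.05 in all 12 fits that left out 1 pup, namely Stac2 in both comparisons, and Cacng4, Cacng8 and Rem2 in IUO against PNO. In IUO against PNO 9.32% of all genes had that p with the myelin score in the fit, against 15.3% without it. With this score 8 of the 15 lost that p, among them in IUO against PNO Cacng8 (0.10), Cacng5 (0.19), Nedd4l (0.16) and Rimbp2 (0.0064), while Stac2, Cacng4 and Rem2 kept it. Nedd4l and Rimbp2 also lost it in 8 of the 12 fits without 1 pup, and Cacng5 in IUO against PNO in 7. Fgf12 without PNO pup 2 (-0.12), Rims2 without IUO pup 2 (0.13 against SAL and 0.14 against PNO) and Cacng8 against SAL without SAL pup 4 (0.16) fell by over 1.5 times and did not pass.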

How the data were processed

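RNA from the PFC of 18 pups was sequenced as 75-base single reads on 1 flow cell. Per the file headers, the authors deposited for each pup expected counts, TPM, FPKM and lengths per gene. The aligner, quantifier and genome build are not given in the sources used here. TPM and FPKM values deposited by the authors are scaled to transcript length and total, and were used for levels and, for TPM, in an alternative of the ratios. Expected counts divide reads that fit several genes, so closely related channel genes may share reads.

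Expected counts were rounded and tested with edgeR 4.0.16 (quasi-likelihood test, TMM, filterByExpr, 1 model over 3 groups, Benjamini-Hochberg over 15703 genes). The SE is the fold change over the root of F. CPM were TMM-normalized, with a prior count of 2 in log2 CPM. Ratios were tested by exact permutation (924 divisions) and relations by 100000 permutations, of which 5 were planned and 28 added. Alternatives used DESeq2 1.42.0, limma 3.58.1 and other settings, and the length covariate and the fit without 3 libraries were chosen after seeing the data. Scripts were tested on simulated data. The members, lists and tests were chosen with earlier results of these data known. Statistics are given for members with an unadjusted p under 0.05, the leading gene of each subunit class and the genes of the ratios, and partner genes are named by the same p. Of the 32 genes that match the symbol rule, 2 are not reported here, nor are the ratio and relations with them. They stay in the fit over all genes. The 30 reported symbols matched the RefSeq gene table and 22 had a promoter window. The floor given for a count of 0 covers counting error only, while each SE and SD includes the spread between pups. No 2 libraries of a group agreed within sampling noise.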

Additional observations from a re-analysis of the deposited data

Results flagged for a closer look

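Over 105 groups of 6 pups (35 measures, 3 groups), 4 had a pup whose gap to the nearest other pup exceeded 0.625 of the group's range, where chance gives about 1 in 20. SAL pup 6 was highest for Cacna1c, at 6.24 log2 CPM against 5.32 (0.627 of the range), for Cacna1d, at 6.78 against 6.06 (0.68), and for the log2 ratio of Cacnb4 to Cacnb1, at -0.73 against -1.74 (0.645). SAL pup 4 was lowest for Scn2b, at 3.26 log2 CPM against 4.41 (0.634). SAL pup 6 had the longest mean transcripts of its group, and SAL pup 4 the shortest of all 18 libraries. The part of that measure in these values was not tested.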

How the results depend on the processing

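The number of the 28 tested channel genes at an adjusted p under 0.05 was 0 in all 3 comparisons under every alternative but limma-voom (2, namely Cacna1c and Scn1a, in IUO against PNO, beside 12.9% of all genes), and the cause was not tested. At an unadjusted p under 0.05, the call of Cacna1d in PNO against SAL was lost in 6 of 12 alternatives, namely limma-voom, where Cacna1s passed instead, the replicate block (0 genes), the myelin score (Scn4b instead), the length covariate (0), the fit without the 3 longest-transcript libraries (Cacna1s instead) and the fit to only the 12 pups compared (0). All genes at that p came to 6.69%, 4.62%, 3.31%, 5.74%, 4% and 3.01% in these fits. With the striatal score 2 genes passed, Cacna1d and Cacna1g, beside 4.97% of all genes. In IUO against SAL the call of Scn1a was lost with the myelin score (2 genes, Cacna1d and Cacna1g), with the striatal score (2, Cacna1b and Scn4b) and in the fit to only the 12 pups compared (Cacna1g), and 2 genes, Scn1a and 1 more, passed with limma-voom and with the length covariate. All genes at that p came to 7.34%, 7.77%, 7.36%, 17.3% and 11.2% in these fits. In IUO against PNO Scn1a lost its call with the myelin score alone, where 3 other genes, Cacna1g, Scn9a and Scn4b (2.80), passed beside 9.32% of all genes. It was among 9 genes with limma-voom (34% of all genes), 2 with no filter on low counts (12.1%), 4 with the striatal score (17.2%), and 3 with the length covariate (17.6%), without the 3 longest-transcript libraries (19.6%) and in the fit to only the 12 pups compared (16.3%). By ratios of expected counts, 2 subunit ratios rather than 1 had such a p there. Leaving out 1 pup at a time gave 0 to 2, 0 to 3 and 1 to 3 genes in these comparisons, beside 2.52% to 8.99%, 5.14% to 8.77% and 11.4% to 21.4% of all genes, and 0 to 1, 0 to 1 and 0 to 3 subunit ratios. In those fits Cacnb4 in PNO against SAL ran from -0.43 to 0.0618 and Scn8a from -0.47 to 0.0013, both above 0 without SAL pup 6.

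With the myelin score the median over the channel genes in IUO against PNO was -0.10. Of the channel gene fold changes printed above, those of Cacna1a (-0.14), Cacna1b (-0.046), Cacna1c (-0.0901), Scn2a (-0.27), Scn2b (-0.12) and Scn3a (-0.15) changed sign there, as did Cacnb4 (0.10) and Scn8a (0.0949) in PNO against SAL. Values not printed above also changed sign. Among them were Cacna1e (-0.47), Cacna2d1 (-0.71) and Cacna1d (-0.13) in IUO against PNO, and Cacna1e (0.29), Cacna2d1 (0.31) and Cacna1g (0.0046) in PNO against SAL. Among the same printed values, Cacna2d3 (-0.0337) and Scn4b (-0.88) changed sign with the striatal score, and Scn2a (-0.0024) and Scn2b (-0.0104) with the length covariate, all in IUO against PNO. Of values not printed above, Scn4b turned with the striatal score in PNO against SAL (-0.30 to 0.25) and IUO against SAL (0.10 to -0.63). In IUO against PNO Cacna1g turned with that score (-0.13 to 0.10) and Cacna2d1 with the length (0.11 to -0.14). None of these passed after adjustment.

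The labels do not pair pups by replicate number. The deviations of same-numbered pups had a mean correlation of 0.232, -0.027 and 0.063 in the 3 comparisons, and 4, 1 and 3 of 6 numbers were above 0.1. The best match in the other group was the same-numbered pup for 2, 0 and 2 of 6 numbers. These values do not settle whether the numbers pair pups. With the replicate block, 0, 1 and 3 channel genes had an unadjusted p under 0.05, beside 4.62%, 7.44% and 16.5% of all genes, and the number of subunit ratios at that p, 0, 0 and 1, was as without it. Depth limits the 7 genes under 1 TPM, with at most 56 counts in any pup.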
